A study of Rattus norvegicus with 17 samples.

Results

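The T helper 1 (Th1) genes described here are the transcription factor Tbx21, the cytokines Ifng, Il2, Tnf and Lta, and the receptor chains Ifngr1, Il12rb1, Il12rb2, Il18r1 and Il18rap. They were chosen by name for their place in the Th1 programme, and 9 of the 10 were found among the 14506 genes that the platform annotation names with 1 symbol. Il18rap, the second chain of the IL-18 receptor, is not listed there and was not analysed here. Expression was measured with 17 Affymetrix rat gene arrays, 1 per RNA sample, on CD4+ T cells that had been isolated by FACS. The rats were Dark Agouti females, age-matched per the labels with no age stated, and the cells came from their inguinal lymph nodes. All rats were immunized with myelin oligodendrocyte glycoprotein (MOG), which induces experimental autoimmune encephalomyelitis (EAE, used to model multiple sclerosis), and cells were taken 7 days later. The groups differed in the vitamin D of the feed, started 5 weeks before immunization: 0 IU (deprived, 5 arrays, numbered 2 to 6), 2 IU (regular, 6 arrays) and 10 IU (supplemented, 6 arrays). There was no group without immunization, and the labels do not say per what amount of feed these IU are counted.

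Th1 cells are the CD4+ T cells that make interferon gamma. T-bet, the product of Tbx21, switches on Ifng and Il12rb2, and IL-12 from antigen-presenting cells signals through Il12rb1 and Il12rb2 to STAT4, which drives the same programme further. IL-18 acts through Il18r1 and Il18rap and works with IL-12 to raise interferon gamma output, while interferon gamma itself acts through Ifngr1 and its partner chain on the kinases JAK1 and JAK2. Th1 cells are among the T cells that can transfer encephalomyelitis in rodents, and the active form of vitamin D is known to lower Ifng and Il2 transcription in cultured T cells.

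Sequence around the annotated start is shown for the pair of receptor chains that passed a test (Ifngr1 and Il18r1). The cytokine that defines the cell type (Ifng) is shown beside them. Each window runs from 250 bases before to 50 after the start of the gene in RefSeq. The build is GRCr8, a Brown Norway reference and not the strain used here, and all 9 measured genes have such a window. That start need not be where transcription begins. In the Ifng window the 50 bases after it open with atg, and the TATAAA match lies at -139. Matches may thus lie in transcribed sequence. The Ifngr1 window is chr1:16152660-16152959, that of Il18r1 is chr9:50223241-50223540 and that of Ifng is chr7:55788930-55789229, all on the plus strand. Letters in capitals mark matches to the motifs searched.
Ifngr1: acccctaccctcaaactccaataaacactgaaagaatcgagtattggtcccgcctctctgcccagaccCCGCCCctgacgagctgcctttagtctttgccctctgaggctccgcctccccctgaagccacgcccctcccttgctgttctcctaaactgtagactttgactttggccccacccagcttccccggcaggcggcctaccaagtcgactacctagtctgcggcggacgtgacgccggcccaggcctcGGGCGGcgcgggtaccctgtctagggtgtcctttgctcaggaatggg
Il18r1: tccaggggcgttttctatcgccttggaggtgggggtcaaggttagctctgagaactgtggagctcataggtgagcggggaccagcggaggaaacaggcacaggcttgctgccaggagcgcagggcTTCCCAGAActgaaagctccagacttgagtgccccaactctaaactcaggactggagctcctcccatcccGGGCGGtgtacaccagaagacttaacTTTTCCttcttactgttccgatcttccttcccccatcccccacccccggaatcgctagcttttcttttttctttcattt
Ifng: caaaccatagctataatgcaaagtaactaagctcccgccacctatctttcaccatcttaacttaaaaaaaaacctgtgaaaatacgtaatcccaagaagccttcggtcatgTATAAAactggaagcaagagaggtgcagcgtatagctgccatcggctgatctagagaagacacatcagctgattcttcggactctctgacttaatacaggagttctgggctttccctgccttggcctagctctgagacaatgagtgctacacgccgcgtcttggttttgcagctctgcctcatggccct

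Both strands were searched for 6 short motifs. GGGCGG (GC box) occurs in 33.1% of the 33469 rat promoter windows and in those of Tbx21, Ifngr1, Il18r1, Tnf and Lta; the Ifngr1 window holds it once on each strand. TTCNNNGAA, the palindrome that STAT proteins bind, occurs in 8.87% of all windows and in those of Il12rb2, Il18r1 and Lta. GGAAAA, a core of NFAT sites, occurs in 24.7% of windows and in those of Il12rb1, Il18r1, Il2 and Tnf. TATAAA occurs in 14.2% of windows and in those of Ifng, Il12rb1, Il2, Tnf and Lta, whereas the Ifngr1 and Il18r1 windows have no match to it. AGGTCA, a core of sites for nuclear receptors such as the vitamin D receptor, occurs in 16.2% of windows and among these genes in that of Il2. That match lies at -6 from the annotated start, after the TATAAA match at -65. GGTGTGA, a T-box motif, occurs in 3.83% of windows and in none of these 9. None of the matches printed in capitals overlaps another, and a match to these letters is not evidence of binding.

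Values are log2 expression, and differences were tested between diets, never from 1 gene to another. Differences were tested with limma in 1 model over the 3 diets, and p-values were adjusted (Benjamini-Hochberg) over all 14506 genes, with 0.05 as the threshold. The diets are each given as biological replicates in the labels; no batch or day is named, and p-values reflect only how far these samples spread. The arrays themselves differed by diet in their spread, the SD of all values on an array, which averaged 2.05 ± 0.017 on deprived (n = 5), 2.03 ± 0.022 on regular (n = 6) and 1.94 ± 0.027 on supplemented arrays (SD, n = 6). The supplemented arrays (1.908 to 1.972) did not overlap the regular arrays (2.001 to 2.063; two-sided exact permutation p = 0.00216) or the deprived arrays (2.027 to 2.073; p = 0.00216, the smallest that 6 against 5 arrays can give). Supplemented replicates 5 and 2 had the smallest spread, at 1.908 and 1.911. Spread and the 10 IU diet cannot be told apart, and values that bear on this stand beside the results.

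**Figure D1:**
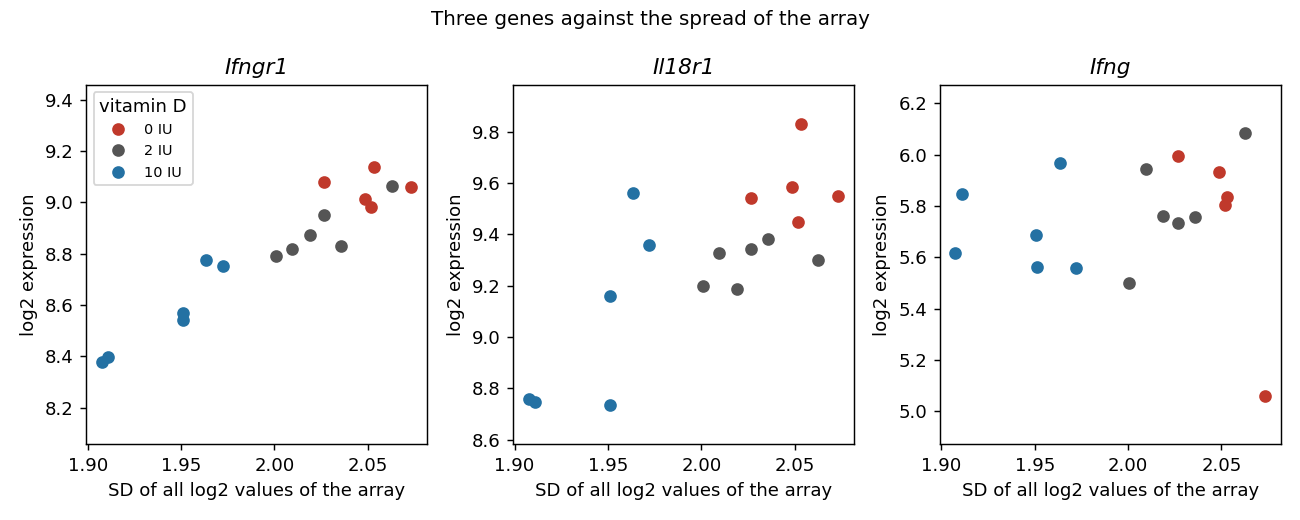
Log2 expression of Ifngr1, Il18r1 and Ifng (vertical axes) against the SD of all log2 values of the array (horizontal axes); each point is an array, coloured by diet. All 6 supplemented arrays (10 IU) lie left of the others, and Ifngr1 rises with the spread of the array.

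Markers of CD4+ T cells and of B cells included genes that differed in supplemented cells; the counts below stand against 26.7% of all genes called between supplemented and regular cells (1460 higher, 2420 lower). Of 8 genes of CD4+ T cells, 4 were lower in supplemented than in regular cells, among them Cd4 (difference -0.59, limma adjusted p = 0.000339) and Cd3e, a chain of the T cell receptor complex (-0.29, adjusted p = 0.00737). Their mean level per array was 10.25 to 10.50 on supplemented arrays, 10.57 to 10.78 on regular and 10.55 to 10.76 on deprived arrays. Of 7 B cell markers measured, 5 were higher in supplemented than in regular cells, such as Cr2 (0.66) and Fcrla (0.40), while Cd79b (0.20, adjusted p = 0.0662) and Cd22 (-0.49, adjusted p = 0.0771) did not pass. Cd22 was lower in supplemented than in deprived cells (-0.59, adjusted p = 0.0349), where 5 others of the list were higher. In that comparison 39.5% of all 14506 genes were called (2663 higher, 3074 lower). The Cd22 call was lost under quantile normalization, cyclic loess and array weights, and without any 1 of deprived replicates 2 to 5 and supplemented replicates 1, 2 and 5; Cd79b and Cd22 were named after their values were seen. The B cell list had means of 6.15 to 6.58 on supplemented, 5.95 to 6.35 on regular and 6.06 to 6.22 on deprived arrays. Of 13 macrophage, monocyte and neutrophil markers, 3 were higher, such as Tyrobp (0.32) and Spi1 (0.25), with list means of 5.72 to 5.84 on supplemented, 5.56 to 5.71 on regular and 5.53 to 5.75 on deprived arrays. Of 10 CD8 T and NK cell markers Ncr1 was higher (0.20) and Cd8b lower (-0.27), and of 6 dendritic cell markers Clec9a was higher (0.27). In either direction these 3 counts are below the share of all genes. All 3 macrophage, monocyte and neutrophil calls and that of Clec9a were in the higher direction, where 1460 of 14506 genes were called. Counted in that direction, both lists are above the share of all genes, the dendritic list by 1 gene only. Apart from Tyrobp (7.00), the markers called higher had regular means of 4.03 (Clec9a) to 6.11. The 4 genes of CD4+ T cells called lower were at 10.1 to 11.9, but Cd8b, also lower, was at 5.80. The shares of all genes were not matched for level, so the part of level and array spread in these counts was not tested. Under quantile normalization and under cyclic loess the supplemented minus regular differences of Cd3e, Spi1, Ncr1 and Clec9a did not pass, and that of Cd8b did not without any 1 of regular replicates 1, 2 and 5 and supplemented replicates 1, 5 and 6. The part of other cells in the results below was not tested, and in such bulk RNA fewer cells of a type and less RNA per cell cannot be told apart.

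Of the Th1 genes, Ifngr1 and Il18r1 differed between diets, both lowest on average in supplemented cells, and the factor Tbx21 and all 4 cytokines did not pass. Between supplemented and regular cells 1 of the 9 measured genes passed the test (Ifngr1, lower), against 26.7% of all genes in either direction and 16.7% in the lower direction. Between deprived and regular cells none of the 9 passed (0.944% of all genes did); 2 of them, Ifngr1 and Il18r1, had an unadjusted limma p under 0.05, as did 2022 of all genes. Between supplemented and deprived cells 2 passed, Ifngr1 and Il18r1, both lower, against 39.5% of all genes and 21.2% in the lower direction. The moderated F test over the 3 diets called the same pair, against 36.9% of all genes. In either direction the share called among the 9 was below that of all genes in both supplemented comparisons; counting lower calls alone, 2 of 9 against deprived cells was near the share of all genes. The median difference of the 9 was -0.0022 for supplemented minus regular cells (0.043 over all genes), -0.020 for deprived minus regular (-0.0053 over all genes) and 0.010 for supplemented minus deprived (0.051 over all genes). The 3 comparisons share arrays, so they are not independent of each other.

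**Figure D2:**
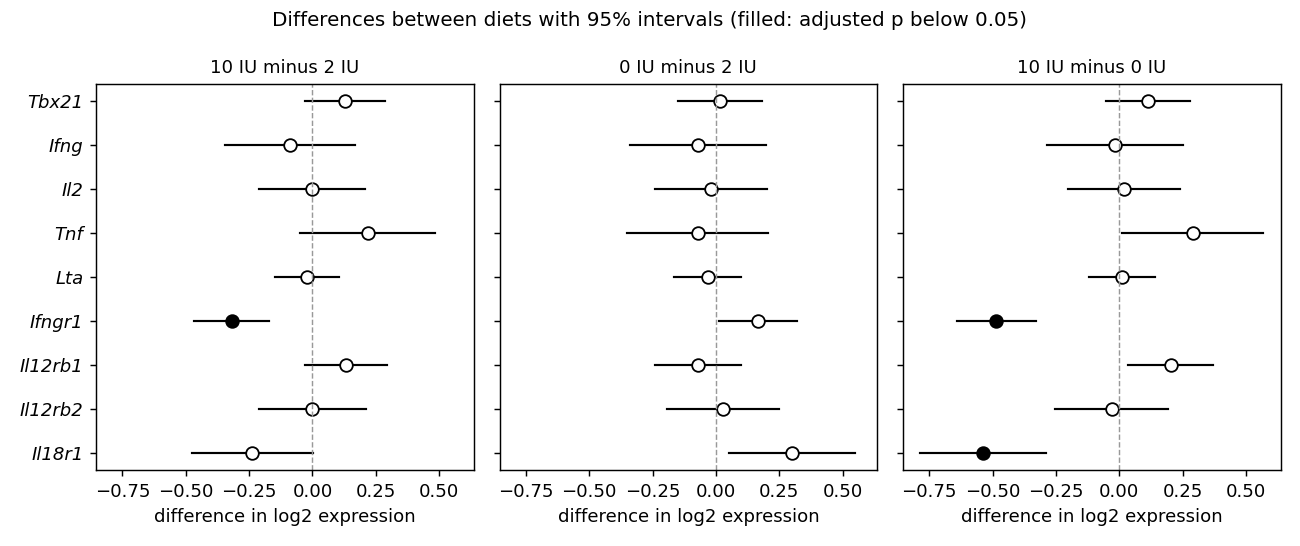
Difference in mean log2 expression (horizontal axis) with its 95% confidence interval for each of the 9 measured Th1 genes, in each pair of diets. The intervals of Ifngr1 for supplemented minus regular and minus deprived cells lie below 0, as does that of Il18r1 for supplemented minus deprived cells. Above 0 lie those of Ifngr1 and Il18r1 for deprived minus regular cells. So do those of Il12rb1 and Tnf for supplemented minus deprived cells, but none of the intervals above 0 belongs to a difference that passed after adjustment.

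Tbx21 (transcript cluster 10746628), which encodes T-bet, showed no difference that passed the test. It was at 5.84, 5.84, 5.70, 5.91 and 5.51 on the deprived arrays. Regular arrays ran from 5.67 through a median of 5.74 to 5.82, and supplemented arrays from 5.67 through 5.86 to 6.08. The 3 ranges overlapped, and the highest values were on supplemented arrays. The difference was 0.13 for supplemented minus regular cells (95% confidence interval -0.028 to 0.29, limma adjusted p = 0.203), 0.016 for deprived minus regular (-0.15 to 0.18, adjusted p = 0.958) and 0.11 for supplemented minus deprived (-0.051 to 0.28, adjusted p = 0.255).

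Among the cytokines, none differed between diets by the test. Ifng (10895625), the signature Th1 cytokine, was at 5.06, 5.83, 5.93, 5.99 and 5.80 on the deprived arrays. On regular arrays it ran from 5.50 through a median of 5.76 to 6.08, and on supplemented arrays from 5.56 through 5.65 to 5.97. Supplemented values lay inside the range of the regular ones, and deprived replicate 2 stood below every other array. The difference was -0.089 for supplemented minus regular cells (-0.35 to 0.17, limma adjusted p = 0.605), -0.071 for deprived minus regular (-0.34 to 0.20, adjusted p = 0.865) and -0.018 for supplemented minus deprived (-0.29 to 0.25, adjusted p = 0.921). Without deprived replicate 2 the deprived minus regular difference was 0.095, and leaving out 1 array at a time gave -0.14 to 0.095 (29 alternatives, adjusted p 0.702 to 0.976). These intervals do not show the levels to be equal. Diet means of Ifng (5.71 to 5.80), Il2 (5.80 to 5.82) and Tbx21 (5.74 to 5.87) were below the median of every array. They were above 5.321, where the filter that leaves out the lowest 25% of genes cuts. No signal over background is given, so a lack of change in these genes cannot be told from too dim a signal.

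Il2 (10822909), the T cell growth factor, averaged 5.80 ± 0.31 in deprived (n = 5), 5.82 ± 0.11 in regular (n = 6) and 5.82 ± 0.15 in supplemented cells (SD, n = 6). Deprived arrays spread most, from 5.28 on replicate 6 to 6.11 on replicate 3, and held both the lowest and the highest of the 17 values. The interval of the difference was -0.21 to 0.21 for supplemented minus regular cells (limma adjusted p = 0.989), -0.24 to 0.20 for deprived minus regular (adjusted p = 0.96) and -0.20 to 0.24 for supplemented minus deprived (adjusted p = 0.904).

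Tnf (10828021), an inflammatory cytokine of Th1 and many other cells, had its highest median in supplemented cells. It was at 7.83, 7.51, 7.43, 7.40 and 7.60 on deprived arrays. Regular arrays ran from 7.44 through 7.55 to 8.06, and supplemented arrays from 7.19 through 7.93 to 8.20. Supplemented replicate 2 had the lowest Tnf of all 17 arrays, while the other 5 supplemented arrays were at 7.78 or above. The difference of 0.22 for supplemented minus regular cells (SE 0.13, -0.049 to 0.48) did not pass (limma adjusted p = 0.205), nor did that of 0.29 for supplemented minus deprived (SE 0.13, 0.010 to 0.57, adjusted p = 0.089), and deprived minus regular was -0.072 (adjusted p = 0.869). Leaving out supplemented replicate 2 changed both calls, and the differences were 0.35 (adjusted p = 0.0184) for supplemented minus regular and 0.42 (adjusted p = 0.00453) for supplemented minus deprived, within adjusted p ranges over 29 alternatives of 0.015 to 0.526 and 0.00364 to 0.361. Tnf also passed in both comparisons without supplemented replicates 2 and 5. With all arrays kept, the difference from deprived cells also passed under cyclic loess (0.36, adjusted p = 0.0464) and with array weights (0.34, adjusted p = 0.0467). Tnf correlated with array spread within diets at r = 0.616 (permutation p = 0.0202, adjusted 0.0907) and rho = 0.679 (adjusted 0.0273), with r = 0.524 without the 2 farthest arrays. Inside single diets r was 0.881 in deprived, 0.165 in regular and 0.8 in supplemented cells. With array spread as a covariate the difference was 0.82 (adjusted p = 0.297) for supplemented minus regular and 1.07 (adjusted p = 0.221) for supplemented minus deprived cells, and with arrays centred on their median 0.14 and 0.19 (adjusted p = 0.526 and 0.361).

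Lta (10828016), which encodes lymphotoxin alpha and lies next to Tnf on chromosome 20, averaged 6.74 ± 0.087 in deprived (n = 5), 6.77 ± 0.072 in regular (n = 6) and 6.75 ± 0.10 in supplemented cells (SD, n = 6). Its difference for supplemented minus regular cells was -0.022 (-0.15 to 0.10, limma adjusted p = 0.799). The adjusted p was 0.875 between deprived and regular cells, and 0.906 between supplemented and deprived cells.

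**Figure D3:**
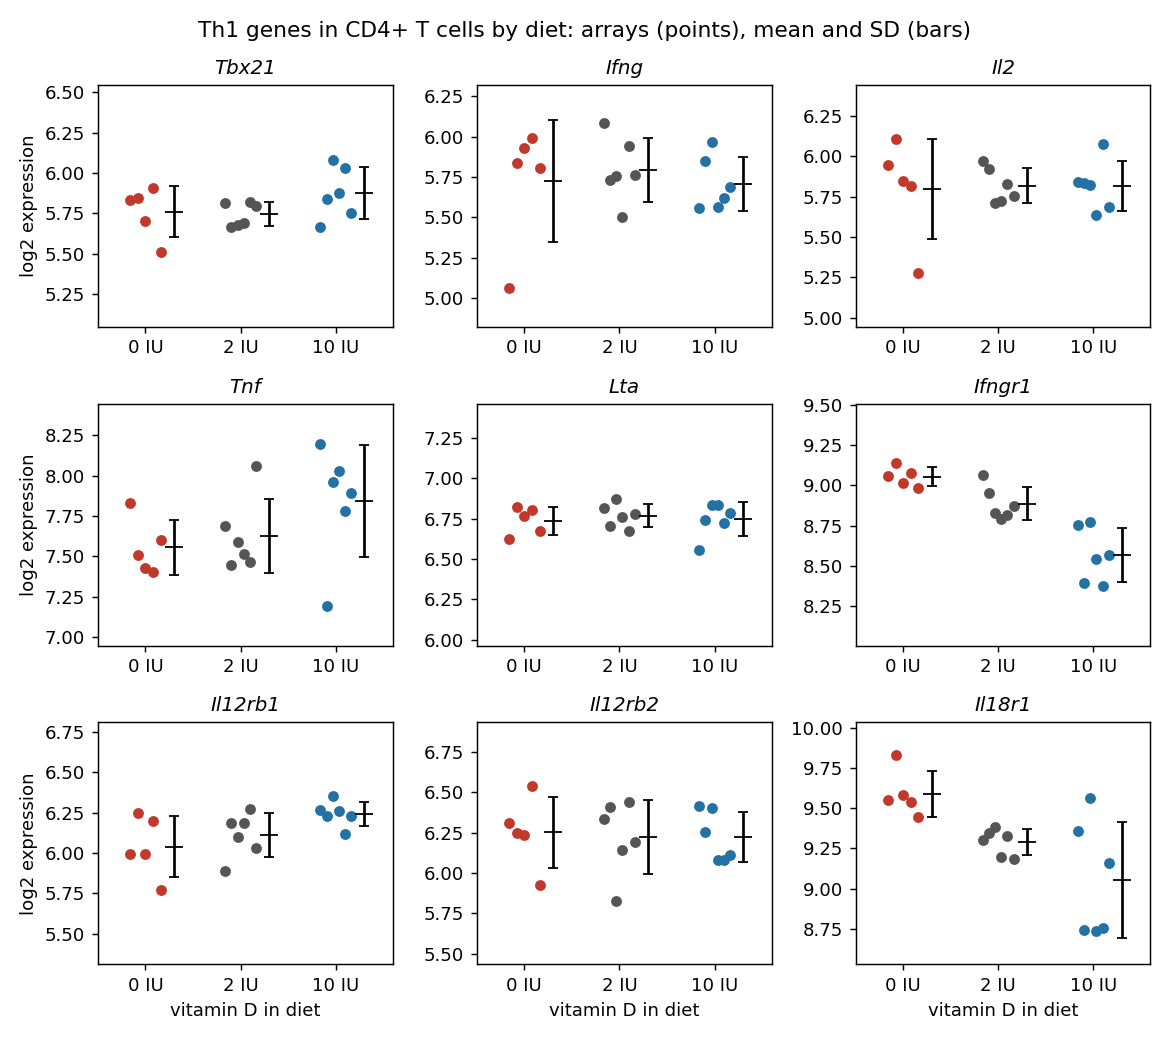
Log2 expression (vertical axis) of the 9 measured Th1 genes on every array, by diet (horizontal axis); each point is an array, and bars show the mean and SD. Ifngr1 in supplemented cells lies below every deprived and regular array, and Il18r1 in deprived cells above every regular array; the other genes overlap between diets.

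Ifngr1 (10701924), the ligand-binding chain of the interferon gamma receptor, was lowest in supplemented cells. It was at 9.06, 9.14, 9.01, 9.08 and 8.98 on deprived arrays. On regular arrays it ran from 8.79 through a median of 8.85 to 9.06, and on supplemented arrays from 8.38 through 8.56 to 8.77. Every supplemented array was below every regular and every deprived array, while deprived and regular arrays overlapped. The difference for supplemented minus regular cells was -0.32 (SE 0.072, -0.47 to -0.17, limma adjusted p = 0.00217), or 0.802 of the regular level. Against deprived cells the difference was -0.49 (SE 0.075, -0.64 to -0.33, adjusted p = 3.12e-05), or 0.714 of the deprived level. Deprived minus regular cells gave 0.17 (0.011 to 0.32), with an unadjusted p of 0.0373 that did not survive adjustment (limma adjusted p = 0.319).

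Ifngr1 followed the spread of the arrays inside the diets as well. After removal of the diet means, its correlation with array spread over the 17 arrays was r = 0.798 (permutation within diets, p = 0.0014, 0.0126 adjusted over 9 genes) and rho = 0.713 (permutation p = 0.0056, adjusted 0.0273). It was 0.687 without the 2 arrays farthest from the median spread, and within single diets r was -0.078 in deprived, 0.86 in regular and 0.943 in supplemented cells. With array spread as a covariate in the model the supplemented minus regular difference was 0.038 (SE 0.11, against 0.072 without the covariate, limma adjusted p = 0.942) and that against deprived cells -0.020 (adjusted p = 0.977); with that covariate 0 of the 14506 genes passed in either comparison. Under quantile normalization between arrays Ifngr1 remained lower in supplemented than in regular cells, by a smaller amount (-0.18, adjusted p = 0.0434), and likewise under cyclic loess (-0.18, adjusted p = 0.0497; range over 29 alternatives 0.000612 to 0.942). Without supplemented replicates 2 and 5 it was -0.23 (adjusted p = 0.0294) against regular and -0.39 (adjusted p = 0.000368) against deprived cells.

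Il18r1 (10922871), the ligand-binding chain of the IL-18 receptor, had its highest mean in deprived cells. It was at 9.55, 9.83, 9.58, 9.54 and 9.45 on deprived arrays. On regular arrays it ran from 9.19 through a median of 9.31 to 9.38, and on supplemented arrays from 8.74 through 8.96 to 9.56. All 5 deprived arrays were above all 6 regular arrays, while the supplemented arrays split into 3 at 8.74 to 8.76 and 3 at 9.16 to 9.56 and overlapped both other diets. The difference for supplemented minus deprived cells was -0.54 (SE 0.12, -0.79 to -0.29, limma adjusted p = 0.00136), or 0.689 of the deprived level.

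The steps between neighbouring doses did not pass for Il18r1. Deprived minus regular was 0.30 (SE 0.12, 0.051 to 0.55, limma adjusted p = 0.248) and supplemented minus regular -0.24 (SE 0.11, -0.47 to 0.00049, adjusted p = 0.124). In a fit of deprived and regular arrays alone the deprived excess passed (0.30, adjusted p = 0.0283; range over 29 alternatives 0.0283 to 0.645). Without supplemented replicate 3, the highest of its diet, supplemented minus regular passed (-0.34, adjusted p = 0.0141; range over alternatives 0.0141 to 0.721), but it was -0.081 under quantile normalization, -0.074 under cyclic loess and -0.087 without supplemented replicates 2 and 5 (adjusted p = 0.662, 0.702 and 0.638). Quantile normalization reduced the supplemented minus deprived difference to -0.30 (adjusted p = 0.0499; range 5.5e-05 to 0.938), and with array spread as a covariate it was 0.094 (adjusted p = 0.938). The within-diet correlation of Il18r1 with array spread was r = 0.57 (permutation p = 0.0543, adjusted 0.163) with rho = 0.551.

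Values of 2 diets did not overlap for 1 of the 9 genes between supplemented and regular cells (Ifngr1; 9.68% of all genes), for 1 between deprived and regular cells (Il18r1; 4.34%) and for 1 between supplemented and deprived cells (Ifngr1; 19.5%).

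The IL-12 receptor chains did not pass in any comparison. Il12rb1 (10790896), which the IL-12 and IL-23 receptors share, averaged 6.04 ± 0.19 in deprived (n = 5), 6.11 ± 0.14 in regular (n = 6) and 6.24 ± 0.076 in supplemented cells (SD, n = 6). All 6 supplemented arrays, at 6.12 to 6.35, were above the deprived mean, but the ranges overlapped, since deprived replicate 3 reached 6.25. Its difference for supplemented minus deprived cells, 0.20 (0.034 to 0.37), was just outside the threshold (limma adjusted p = 0.0514; range over 29 alternatives 0.0229 to 0.943). It passed when any 1 of deprived replicate 3, deprived replicate 5, regular replicate 1 or supplemented replicate 5 was left out (0.25 without deprived replicate 3), with the lowest 25% of genes by level left out (adjusted p = 0.0459) and with the replicate number as a block (adjusted p = 0.0336), and quantile normalization reduced it to 0.088 (adjusted p = 0.467). Supplemented minus regular was 0.13 (adjusted p = 0.203) and deprived minus regular -0.070 (adjusted p = 0.759). Il12rb2 (10862876), the chain that T-bet induces and that makes T cells respond to IL-12, averaged 6.25 ± 0.22 in deprived (n = 5), 6.22 ± 0.23 in regular (n = 6) and 6.22 ± 0.16 in supplemented cells (SD, n = 6). The intervals of its differences were -0.21 to 0.21 for supplemented minus regular (adjusted p = 0.996), -0.19 to 0.25 for deprived minus regular (0.942) and -0.25 to 0.19 for supplemented minus deprived (0.839).

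Across arrays no pair of Th1 genes was correlated past the threshold in the deposited values, and 1 was in each of 2 alternatives. Of 36 pairs, compared after removal of the diet means, 0 passed after Benjamini-Hochberg adjustment of within-diet permutation p-values, and 4 had a raw p under 0.05; r was positive in 28 and negative in 8. The closest pair was Ifngr1 with Il18r1 (r = 0.788, permutation p = 0.00246, adjusted 0.0886; rho = 0.701, p = 0.0113, adjusted 0.296), with r = 0.698 without the 2 farthest arrays. Within diets this pair had r = 0.844 in deprived, 0.191 in regular and 0.916 in supplemented cells. Tbx21 was closest to Il2 (r = 0.607, permutation p = 0.0345, adjusted 0.311). Ifngr1 with Il12rb2 had r = 0.504 (permutation p = 0.0317, adjusted 0.311; rho = 0.571), and passed under quantile normalization (r = 0.759, adjusted 0.0252) and with array spread removed (r = 0.752, adjusted 0.0324).

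Where the genes around these receptors and cytokines passed, most were lower in supplemented cells. Of all genes that passed in the deposited values a smaller majority was lower. Of 60 genes in 6 lists of 10, 52 were measured, and between supplemented and regular cells 1 was higher, 12 lower and 39 did not pass (median difference -0.060). Between supplemented and deprived cells 3 were higher, 16 lower and 33 did not pass (median -0.072), and between deprived and regular cells none of 52 passed (median 0.0061). The counts of 13 and 19 of 52 in either direction are near the shares of all genes that passed, 26.7% and 39.5%. Lower calls alone, 12 and 16 of 52, are above the shares of all genes, 16.7% and 21.2%, and that excess was not tested. The 12 had regular means of 7.66 (Irak4) to 11.7 (Jak1), and the higher one, Ciita, was at 5.84. Against deprived cells the 16 had deprived means of 7.85 (Cxcr6) to 11.8 (Jak1). The 3 higher there were at 5.03 (Havcr2) to 6.08 (Tradd). The shares of all genes were not matched for level, so the part of level and array spread in the excess was not tested. Of all genes, 2420 were lower and 1460 higher between supplemented and regular cells (3262 and 332 with arrays centred on their median), and 3074 lower and 2663 higher between supplemented and deprived cells. The interferon gamma list (9 measured) had 3 genes lower and 1 higher in supplemented than in regular cells. The lower ones were both receptor kinases, Jak1 (-0.31, SE 0.062, limma adjusted p = 0.000724) and Jak2 (-0.38, SE 0.084, adjusted p = 0.00215), and Gbp2, an interferon-induced GTPase (-0.51, SE 0.10, adjusted p = 0.000951). Jak1 did not pass under quantile normalization (-0.13) or cyclic loess (-0.098). The higher one was Ciita (0.27, adjusted p = 0.00058), the master regulator of MHC class II genes; it was named after its value was seen. Against deprived cells Jak1 was -0.45 (adjusted p = 1.46e-05), Jak2 -0.68 (adjusted p = 4.15e-06) and Gbp2 -0.59 (adjusted p = 0.000229) in supplemented cells; Jak1 was -0.21 there under quantile normalization and -0.16 under cyclic loess, and passed.

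The list of IL-12, IL-27 and STAT4 genes (8 measured) had 1 gene lower in supplemented than in regular cells, Stat3 (-0.42, SE 0.098, limma adjusted p = 0.00312), a mediator of IL-6 and IL-23 signals. Stat4, the main transducer of IL-12, was lower against deprived cells (-0.28, adjusted p = 0.00119), but was -0.032 under quantile normalization and -0.030 under cyclic loess and did not pass there; its difference from regular cells was -0.12 (adjusted p = 0.12). Socs3, a feedback inhibitor, did not pass (0.21 for supplemented minus deprived, adjusted p = 0.0979). In the IL-18 list (9 measured) 3 genes were lower in supplemented than in regular cells (16.7% of all genes). Against deprived cells 5 were lower (21.2% of all genes). Irak4, the kinase nearest the receptor adaptor, was -0.36 (adjusted p = 0.00118) and that adaptor, Myd88, -0.29 (adjusted p = 0.0169) against regular cells. Myd88 did not pass under quantile normalization (-0.16), cyclic loess (-0.15) or array weights (-0.22), without regular replicate 1 (-0.22), or without supplemented replicates 2 and 5 (-0.19). Nfkb1, an NF-kappa-B subunit, was lower against deprived cells (-0.38, adjusted p = 0.000827), but was -0.16 under quantile normalization and under cyclic loess and did not pass there. The others, named after their values were seen, were the subunit Rela (-0.25 against regular cells, adjusted p = 0.0217) and the ubiquitin ligase Traf6 (-0.44 against deprived cells, adjusted p = 0.00247). Rela was also called against deprived cells (-0.21, adjusted p = 0.0489), but was 0.017 there under quantile normalization. That call was lost in 11 of the fits with 1 array left out. Against regular cells Rela was -0.091 under quantile normalization and did not pass. Nor did it pass against regular cells without any 1 of regular replicate 1 and supplemented replicates 2 and 5.

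The counts of lower genes in the next lists stand against 16.7% of all genes lower in supplemented than in regular cells. Among 9 measured genes of IL-2 signalling, 2 were lower in supplemented than in regular cells, the transducer Stat5b (-0.45, SE 0.077, limma adjusted p = 0.000196) and the survival factor Bcl2 (-0.32, adjusted p = 0.0153). Bcl2 did not pass under quantile normalization (-0.13), cyclic loess (-0.12) or without supplemented replicates 2 and 5 (-0.21). Il2rb, the signalling chain of the receptor, was at -0.30 and did not pass (adjusted p = 0.0901). Among 9 genes of the TNF and lymphotoxin list, 3 were lower in supplemented than in regular cells, including the adaptor kinase Ripk1 (-0.27, adjusted p = 0.0324) and the NF-kappa-B inhibitor Nfkbia (-0.21, adjusted p = 0.0482); the third, named after its value was seen, was the apoptosis inhibitor Birc3 (-0.40, adjusted p = 0.0395). Ripk1 and Nfkbia did not pass under quantile normalization (-0.13 and -0.087), cyclic loess (-0.12 and -0.085), array weights, or in a fit of the 2 diets alone. Ripk1 also lost its call without any 1 of regular replicates 1, 3 and 4 and supplemented replicates 2, 4 and 5. Nfkbia lost it without any 1 of deprived replicates 2, 3, 4 and 6, regular replicates 1, 2, 3 and 5 and supplemented replicates 1, 2, 5 and 6, and with all transcript clusters, trend and robust moderation or the replicate block. Birc3 did not pass under quantile normalization (-0.31), cyclic loess (-0.31) or array weights (-0.33), nor without any 1 of regular replicates 1, 2 and 3 and supplemented replicates 1, 2, 4 and 5. Tradd, the adaptor of the TNF receptor, was higher against deprived cells (0.32, adjusted p = 0.00771), but not past the test under quantile normalization (0.21), cyclic loess (0.20) or centring (0.21). Of 8 measured genes of Th1 trafficking and effector function none passed between supplemented and regular cells; their median difference was 0.014. Between supplemented and deprived cells the chemokine receptor Cxcr6 was lower (-0.47, adjusted p = 0.000912) and the inhibitory receptor Havcr2 (TIM-3) higher (0.26, adjusted p = 0.0109), the second not past the test under quantile normalization (0.15), cyclic loess (0.13), centring (0.16) or without supplemented replicates 2 and 5 (0.24), while the chemokine Ccl5 was at 0.17 (adjusted p = 0.0799). As for Ifngr1, none of the 52 passed between supplemented and either other diet with array spread as a covariate.

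**Figure D4:**
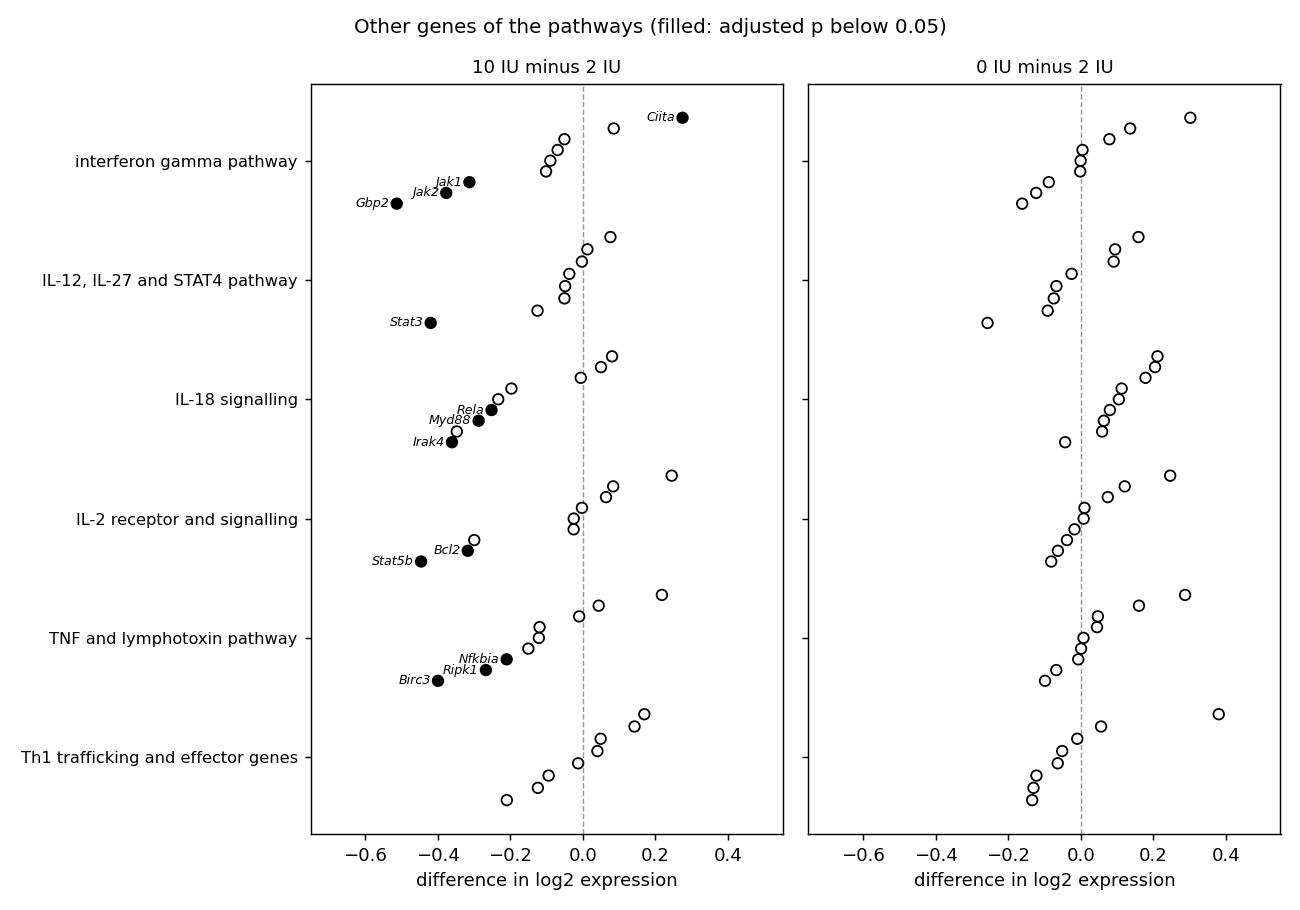
Difference in mean log2 expression (horizontal axis) of the 52 measured genes of the 6 pathway lists (vertical axis), for supplemented minus regular (left) and deprived minus regular cells (right); filled points passed the test and are named. Of the 13 that passed on the left, Ciita alone lies right of 0, and none passed on the right.

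The genes most like a Th1 gene in their level over the 17 arrays are given as a description, since each was picked as the closest among all genes and the arrays share diet and spread. Tbx21 was closest to Trpm4, a calcium-activated cation channel (r = 0.815, rho = 0.755), Gzmm, a granzyme (0.798, 0.743), and Tnfrsf4, the costimulatory receptor OX40 (0.788, 0.789). Ifng was closest to Dnajc12 (r = 0.767, rho = 0.664), the mitotic kinase gene Melk (0.717, 0.689) and the olfactory receptor gene Or8c17 (0.699, 0.49). Ifngr1 was closest to Acsl5, an acyl-CoA synthetase (r = 0.971, rho = 0.953), Cmc1 (0.965, 0.949) and the G protein subunit Gnai3 (0.965, 0.904). Il18r1 was closest to Clint1 (r = 0.938, rho = 0.831), the ubiquitin-conjugating enzyme gene Ube2d2 (0.937, 0.919) and the survival factor Mcl1 (0.937, 0.892).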

How the data were processed

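The deposited log2 values, 1 per transcript cluster and array, were used as the authors gave them. Per the submitters' processing notes they were made with RMA (background correction, quantile normalization and summary of probes) and Partek 6.0; the range of the values set the log base, and the sources used here give neither probe file nor build nor filters. The deposited values nevertheless differed between arrays in median (6.20 to 6.35) and in SD (1.908 to 2.073), and why was not tested. Quantile normalization among the alternatives was applied on top of these values. Of 29214 transcript clusters, 15310 carried 1 gene symbol, 323 several and 13581 none in the platform annotation. Of those with 1 symbol, 15279 matched RefSeq (GRCr8) by Entrez identifier, for names. Each of 14506 genes was represented by its cluster with the highest mean; no level filter was applied. The 9 Th1 genes each had 1 cluster.

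limma 3.58.1 (R 4.3.3) fitted 1 linear model to all 3 diets, leaving 14 residual degrees of freedom, with a moderated F test and Benjamini-Hochberg adjustment. The method was tested on simulated data, drawn for each gene independently and without a spread of arrays that differs by diet. That test therefore does not bear on the effect of array spread. Correlations used 100000 permutations within diets. Named were all Th1 genes, of each pathway list the 3 genes with the smallest F test p, the 3 genes most correlated with Tbx21, Ifng and each called Th1 gene, Cd4, Cd3e, and 2 genes of each other marker list by the same F test. The members and lists were chosen with earlier results of these data known. Alternatives covered normalization, level filter, features tested, variance model, array weights, array spread, replicate block, diets fitted and arrays left out; the correlation with array spread was added after seeing the data. The number of arrays limits the precision.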

Additional observations from a re-analysis of the deposited data

Results flagged for a closer look

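Ifng on deprived replicate 2 had a log2 level of 5.06, far below the other 4 deprived arrays, of which the nearest was at 5.80. Of 27 sets of values tested (9 genes in 3 diets) this was the 1 whose extreme array stood apart by Dixon's criterion, and chance flags about 1 in 20 such sets. On the same array Il2 was at 5.94 and Tbx21 at 5.84, inside the ranges of their diet.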

How the results depend on the processing

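The 9 Th1 genes, each in 3 comparisons, gave 712 values with the main direction and side of the threshold, 14 that newly passed, 1 that no longer passed with the same sign and 56 with the sign turned. In all 3 calls were lost, each with array spread as a covariate: Ifngr1 in both supplemented comparisons and Il18r1 in supplemented minus deprived cells. For none of the reversed values was the cause tested. No Th1 gene was called in the opposite direction. Supplemented minus regular cells called 3880 genes; cyclic loess gave 2528, all transcript clusters 6901, leaving out supplemented replicates 2 and 5 2121, and array spread as a covariate 0. Deprived minus regular called 137; quantile normalization gave 37, loess 57, spread 58, the replicate block 86, all clusters 236, without supplemented 2 and 5 246, only the 2 diets compared 375 and array weights 589, with 26 to 179 when 1 array was left out. Supplemented minus deprived called 5737; loess gave 3471, quantile 3485, without supplemented 2 and 5 3822, all clusters 10785 and spread 0. Th1 genes called between supplemented and regular cells numbered 2 without supplemented 2 and 5, 1 to 2 with 1 array left out and 0 with spread; between deprived and regular cells 1 with only those 2 diets fitted; between supplemented and deprived cells 0 with spread; and by the F test 1 under quantile or loess and 0 with spread. Pathway genes called between supplemented and regular cells numbered 8 with array weights, 7 without supplemented 2 and 5, 0 with spread and 8 to 17 with 1 array left out. Between deprived and regular cells they numbered 3 with array weights, 3 with only 2 diets, 1 without supplemented 2 and 5 and 0 to 1 with 1 array left out; between supplemented and deprived cells 0 with spread. Under quantile normalization, and with spread removed, 1 pair of Th1 genes passed (Ifngr1 with Il12rb2).

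Same-numbered arrays of different diets correlated at -0.167 to 0.161 (16 pairs, 3 over 0.1). Their mean r was 0.0066, against -0.0015 for arrays with other numbers. Such correlations cannot exclude that the numbers pair the arrays, and the labels do not say. The replicate block gave 86 genes for deprived minus regular cells and 6076 for supplemented minus deprived cells. In supplemented minus deprived cells it turned Il2 to -4.8e-05 and let Il12rb1 pass (0.22, limma adjusted p = 0.0336). Scaling moved directions. Of genes called between supplemented and regular cells 37.6% were higher (1460, with 2420 lower), but 9.24% (332 and 3262) with arrays centred on their median; between supplemented and deprived cells 46.4% against 13.6% centred, where the median of all genes moved from 0.051 to -0.053; and between deprived and regular cells 88.3% against 64.9% under quantile and 61.4% under loess.

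For supplemented minus deprived cells, loess gave Tbx21 -0.023, Il2 -0.12, Lta -0.058, Cd3e 0.028, Ube2d2 0.040 and Rela 0.014; quantile gave Tbx21 -0.0098, Il2 -0.10, Lta -0.044, Cd3e 0.015 and Rela 0.017; centring gave Il2 -0.086 and Lta -0.094; leaving out supplemented 2 and 5 gave Il2 -0.052. For deprived minus regular, Il2 was 0.013 with loess, 0.011 with quantile and 0.0055 with centring. For supplemented minus regular, Il12rb2 was 0.027 without supplemented 2 and 5. With spread as a covariate, supplemented minus regular gave Ifngr1 0.038, Il12rb2 0.048, Il18r1 0.25, Jak2 0.019, Stat3 0.00058, Myd88 0.17, Ripk1 0.14, Nfkbia 0.067, Cd3e 0.0067, Gnai3 0.015, Clint1 0.16, Rela 0.19 and Birc3 0.10; supplemented minus deprived gave Il12rb2 0.034, Il18r1 0.094, Il2 -0.00053, Lta -0.016, Stat3 0.037, Stat4 0.031, Nfkb1 0.093, Myd88 0.20, Stat5b 0.14, Bcl2 0.058, Havcr2 -0.0028, Cd4 0.18, Cd3e 0.16, Ncr1 -0.010, Clint1 0.10, Rela 0.36, Birc3 0.21 and Cd22 0.70. With 1 array left out, supplemented minus regular ran from -0.080 to 0.042 for Il12rb2, -0.054 to 0.033 for Il2 and -0.041 to 0.016 for Lta; deprived minus regular from -0.022 to 0.078 for Tbx21, -0.14 to 0.095 for Ifng, -0.051 to 0.11 for Il12rb2, -0.097 to 0.11 for Il2 and -0.14 to 0.015 for Tnf; supplemented minus deprived from -0.18 to 0.049 for Ifng, -0.11 to 0.043 for Il12rb2, -0.11 to 0.095 for Il2 and -0.018 to 0.049 for Lta. No signal over background is given for these arrays, so dim genes cannot be set apart.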
